A study of Mus musculus with 36 samples.

Results

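RAW 264.7 cells, a macrophage-like mouse line grown from a virally induced leukaemia, were given lipopolysaccharide (LPS) with or without a high dose of melatonin, and every measured gene was compared between these groups. The LPS + melatonin cells received 1 mM melatonin 30 min before 10 µg/mL LPS, and the LPS cells received 10 µg/mL LPS. Both were collected after 12 h of treatment. Cells given 1 mM melatonin without LPS (melatonin alone) and cells given solvent were used to see which genes LPS moved by itself and what the same dose did without it. All cells carried the wild-type genotype of the line, per the labels, which do not say what the solvent was or whether the LPS cells also received it. The comparison rests on 6 of the 36 libraries in the series, 3 per group, and 16988 of the 53465 genes in the count table had enough counts to be tested. LPS, a glycolipid from the envelope of Gram-negative bacteria, is a ligand of Toll-like receptor signalling.

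Melatonin is an indole hormone of the pineal gland that signals through G-protein-coupled receptors at low concentrations, and 1 mM lies far above its level in blood. The receptor gene Mtnr1a had 0 counts in all 6 libraries, and Mtnr1b had 1 count, in an LPS + melatonin library. Cells answer different kinds of damage with separate gene programmes. The integrated stress response raises translation of the transcription factor ATF4, whose targets import and make amino acids and charge tRNAs. The unfolded protein response adjusts the folding capacity of the endoplasmic reticulum, the heat shock response supplies chaperones to the cytosol and mitochondria, and NRF2 drives antioxidant enzymes. Macrophages that meet LPS are known to engage parts of these programmes as they switch to making and secreting inflammatory proteins.

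Totals were 4203313 to 6472789 counts in the LPS + melatonin libraries and 7021915 to 7237716 in the LPS libraries. Levels are given in CPM, counts per 1000000 counted reads after scaling of the library sizes. LPS + melatonin replicate 3 had the lowest total and stood apart from its group. The chi-square per degree of freedom between its counts and those of replicates 1 and 2 was 37.7 and 37.1, against 14.4 between replicates 1 and 2 and 13.8 to 14.4 among LPS libraries. Nuclear RNAs summed to 7237 CPM in it, against 11786 and 12144 CPM in the other LPS + melatonin libraries and 10680 to 14161 CPM in the LPS libraries. Of 33 marker genes of fibroblasts, epithelium, endothelium, lymphocytes, granulocytes and red cells, 16 had 0 counts in all 6 libraries. The markers together summed to 2.45 to 8.98 CPM in LPS + melatonin libraries and 7.74 to 8.30 CPM in LPS libraries, and their part in the results was not tested. The macrophage genes Cd68 and Spi1, the gene of the transcription factor PU.1, averaged 226 ± 64.0 and 227 ± 13.3 CPM in LPS + melatonin cells and 214 ± 25.6 and 198 ± 16.05 CPM in LPS cells (mean ± SD, n = 3 libraries per group, as throughout). Other macrophage markers, among them Lyz2, Itgam and Fcgr1, were lower in LPS + melatonin cells, as given below.

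Differences were tested with edgeR's quasi-likelihood test, and "rose" and "fell" are used for genes with a Benjamini-Hochberg adjusted p under 0.05 over all tested genes. Changes are log2 fold changes ± SE of LPS + melatonin over LPS. Whether the 3 libraries of a group were separate cultures is not stated, and the p-values may therefore reflect technical spread only. With melatonin, 482 genes rose and 800 fell. Together they made up 7.55% of the tested genes (2.84% rose and 4.71% fell), and 634 of them (3.73% of the tested genes) differed at least 2-fold. The libraries of the groups did not overlap for 1227 of these 1282 genes, and for 21.6% of all tested genes. A fit to the 6 compared libraries alone, which estimates the spread from fewer libraries, called 558 genes, of which 532 were among the 1282.

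Inflammatory genes were the lowest relative to LPS. Il6, which encodes the cytokine interleukin 6, had 0 counts in all 3 LPS + melatonin libraries and 9.56, 8.73 and 16.3 CPM in the LPS libraries, so it was at least 71.1-fold lower (a bound from 3 counts over the 3 libraries, for counting error only). Il1b, which encodes interleukin 1 beta, stood at 1.69, 5.75 and 10.8 CPM in LPS + melatonin libraries and 324, 267 and 307 CPM in LPS libraries (-5.66 ± 0.58, adjusted p = 1.41e-09). Siglec1, a sialic acid receptor of macrophages, had 0, 0 and 1.60 CPM in LPS + melatonin libraries and 47.6, 49.3 and 36.7 CPM in LPS libraries (-6.54 ± 0.96, adjusted p = 4.32e-06). All LPS + melatonin libraries lay below all LPS libraries for these 3 genes. Mmp9, a gelatinase, had 3 counts in the LPS + melatonin libraries together, and the LPS level was 51.0 times as high (95% counting interval 17.1 to 250). Hdc, which makes histamine, and the nucleoside transporter Slc28a2 fell with log2 fold changes of -4.69 ± 0.83 and -4.79 ± 1.01.

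By list, 9 of 18 tested cytokines fell and 1 rose, 6 of 13 chemokines fell, 13 of 26 inflammatory enzymes and effectors fell, and 9 of 39 interferon-response genes fell. LPS itself had raised 10, 7, 15 and 30 members of these lists, and it had moved 16.5% of all tested genes (8.4% up and 8.09% down). Tnfsf9 and Ncf1 were singled out after their values were seen, as the called members of these lists that LPS had not moved by the definition given further on. Tnfsf9, a ligand that costimulates T cells, rose to 122 ± 19.99 CPM in LPS + melatonin cells, against 70.2 ± 18.6 CPM in LPS cells (0.80 ± 0.25, adjusted p = 0.0335). That call was lost without LPS replicate 2 or 3, without LPS + melatonin replicate 1 or 2 and in the fit of the compared libraries only (adjusted p 0.0693 to 0.175). Ncf1, a cytosolic subunit of the phagocyte NADPH oxidase, fell to 362 ± 40.8 CPM in LPS + melatonin cells, against 614 ± 41.7 CPM in LPS cells (-0.76 ± 0.12, adjusted p = 2.79e-05).

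The highest fold changes belonged to genes that were near 0 in LPS cells. S1pr1, the receptor for the lipid sphingosine 1-phosphate, stood at 6.90, 6.91 and 3.79 CPM in LPS + melatonin libraries and 0.607, 0 and 0.308 CPM in LPS libraries (4.21 ± 0.93, adjusted p = 0.00199). The S1pr1 call was lost in the fit of the compared libraries (adjusted p = 0.0615). Pdcd4, an inhibitor of translation initiation, had 20.4, 22.0 and 12.6 CPM in LPS + melatonin libraries and 1.52, 2.33 and 2.16 CPM in LPS libraries (3.18 ± 0.67, adjusted p = 0.00103). Inpp5k, a phosphoinositide phosphatase, had 13.6, 6.91 and 11.6 CPM in LPS + melatonin libraries and 0.758, 0.728 and 1.54 CPM in LPS libraries (3.38 ± 0.61, adjusted p = 1.40e-04). In solvent cells the same genes averaged 30.2 ± 6.84, 14.5 ± 6.02 and 12.8 ± 7.76 CPM, and LPS had lowered all 3. The exporter gene Abcc3 had a single count in the LPS libraries, and its LPS + melatonin level was 113 times as high (95% counting interval 19.9 to 4517). Nipal3, a magnesium transporter of the NIPA family, rose by 3.31 ± 0.69 and had not been called for LPS (LPS over solvent, -1.08 ± 0.67, adjusted p = 0.303).

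Stress genes were collected in 14 lists with 313 genes, of which 292 were tested. With melatonin 56 of them fell and 16 rose, so 24.7% passed the threshold. Their median change was -0.17, beside 0.02 over all tested genes. Stress genes were also more abundant than most, with a median of 50.5 CPM over the 6 libraries beside 11.3 CPM, and of all tested genes at 10 CPM or more 13.0% passed. LPS by itself had raised 99 of the 292 and lowered 37.

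**Figure D1:**
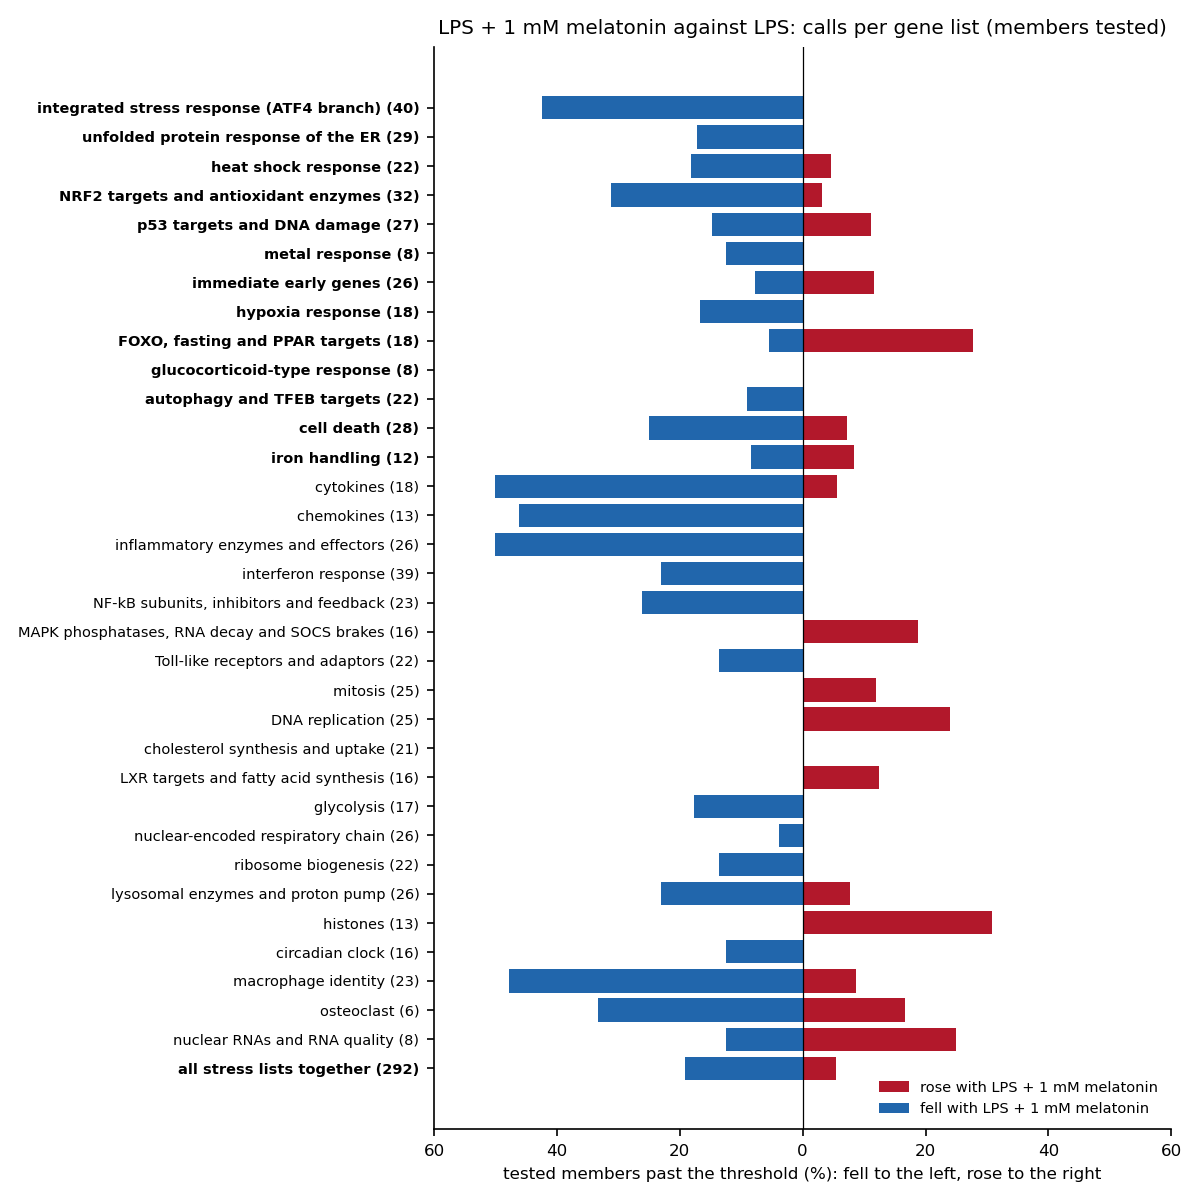
Share of tested members, in percent, that fell (bars to the left) or rose (bars to the right) in LPS + melatonin over LPS cells, for lists with at least 6 tested members, whose number is in brackets. Stress lists are in bold. The integrated stress response has 17 of 40 members to the left and 0 to the right.

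Among the stress lists, the integrated stress response had the largest share of called members in 1 direction, with 17 of 40 tested genes lower, 0 higher and a median of -0.52. Without single libraries 12 to 16 of its genes fell. The fewest fell without LPS + melatonin replicate 2, where 1 rose. LPS by itself had raised 26 of the 40 and lowered 1. Slc7a11, which imports cystine in exchange for glutamate, stood at 218, 190 and 155 CPM in LPS + melatonin libraries and 846, 887 and 960 CPM in LPS libraries (-2.26 ± 0.19, adjusted p = 1.13e-11). Cth, which makes cysteine from cystathionine, had 20.2, 14.5 and 19.8 CPM in LPS + melatonin libraries and 96.2, 85.1 and 91.6 CPM in LPS libraries (-2.33 ± 0.34, adjusted p = 3.45e-06). Asns, asparagine synthetase, had 311, 336 and 343 CPM in LPS + melatonin libraries and 551, 595 and 583 CPM in LPS libraries (-0.80 ± 0.13, adjusted p = 1.24e-05). The groups did not overlap for any of the 3, and solvent cells averaged 39.3 ± 9.14, 10.9 ± 4.20 and 192 ± 13.7 CPM. The tRNA-charging enzymes Sars, Nars, Gars and Tars fell by 0.86, 0.88, 0.85 and 0.51 on the log2 scale, and the arginine transporter Slc7a1 by 0.67. The Tars call was lost without LPS replicate 2 or 3, without LPS + melatonin replicate 1 or 2, with no filter on low counts and in the fit of the compared libraries only (adjusted p 0.0584 to 0.158).

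Atf4 itself had 366, 298 and 614 CPM in LPS + melatonin libraries and 648, 643 and 590 CPM in LPS libraries, so the groups overlapped through LPS + melatonin replicate 3. It fell by 0.56 ± 0.15 on the log2 scale (adjusted p = 0.0130). The call was lost without LPS replicate 1, without LPS + melatonin replicate 1 or 2, and in the fit of the compared libraries only (adjusted p 0.0513 to 0.249). Ddit3, the gene of the stress-induced factor CHOP, did not pass, at 30.5 ± 7.93 CPM in LPS + melatonin cells and 41.3 ± 7.63 CPM in LPS cells (-0.44 ± 0.28, adjusted p = 0.409). Atf3, Trib3 and Chac1, named as further known targets of the branch after their values were seen, did not pass either (-0.49 ± 0.28, -0.50 ± 0.51 and -0.32 ± 0.34).

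The best known sequence through which ATF4 and its C/EBP partners act is the amino acid response element, searched here as TGATGNAA on both strands from 250 bases before to 50 bases after each gene's start. Promoters were taken from RefSeq on GRCm38.p6. The letters occurred in 4 of the 14 fallen genes with a promoter entry (Asns, Slc7a11, Gars and Tars), in 5 of the 19 other genes of the list (Atf3, Trib3, Chac1, Aars and Nupr1) and in 4.51% of all genes. Counted from the gene's start, hits began at -23 in Asns, -66 and -47 in Slc7a11, -30 in Gars and -15 in Tars. These 4 promoters are shown because they hold the motif among the genes that fell, with its letters in capitals on either strand. Their positions are chr6:7693160-7693459 (minus strand) for Asns, chr3:50443564-50443863 (minus) for Slc7a11, chr6:55037751-55038050 (plus) for Gars and chr15:11399609-11399908 (minus) for Tars.
Asns: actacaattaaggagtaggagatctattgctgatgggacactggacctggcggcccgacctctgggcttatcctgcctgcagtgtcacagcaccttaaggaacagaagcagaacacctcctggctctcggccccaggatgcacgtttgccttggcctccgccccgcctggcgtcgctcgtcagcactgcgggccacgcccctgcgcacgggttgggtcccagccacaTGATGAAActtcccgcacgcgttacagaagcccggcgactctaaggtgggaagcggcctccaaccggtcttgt
Slc7a11: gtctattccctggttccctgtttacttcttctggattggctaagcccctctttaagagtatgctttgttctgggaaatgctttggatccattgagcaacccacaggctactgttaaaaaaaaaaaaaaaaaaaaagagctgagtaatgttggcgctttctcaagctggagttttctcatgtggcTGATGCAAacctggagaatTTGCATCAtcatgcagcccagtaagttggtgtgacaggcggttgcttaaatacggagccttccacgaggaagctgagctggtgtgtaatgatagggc
Gars: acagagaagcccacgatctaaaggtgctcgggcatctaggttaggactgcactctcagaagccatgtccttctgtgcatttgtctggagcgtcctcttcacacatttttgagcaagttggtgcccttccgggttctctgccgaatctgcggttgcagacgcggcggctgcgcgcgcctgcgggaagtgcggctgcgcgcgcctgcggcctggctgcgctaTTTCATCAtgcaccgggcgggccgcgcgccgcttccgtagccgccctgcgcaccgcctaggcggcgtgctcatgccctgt
Tars: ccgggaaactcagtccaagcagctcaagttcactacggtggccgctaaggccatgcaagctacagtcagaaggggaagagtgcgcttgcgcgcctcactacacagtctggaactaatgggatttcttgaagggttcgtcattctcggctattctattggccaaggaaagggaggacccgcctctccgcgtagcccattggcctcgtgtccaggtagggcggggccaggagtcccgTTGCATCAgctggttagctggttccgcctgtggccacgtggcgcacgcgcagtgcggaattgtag
The Slc7a11 promoter holds the letters in both orientations. Whether the letters bear on the changes was not tested.

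Of the genes that changed with melatonin, 382 had not been moved by LPS. The definition was an adjusted p of 0.05 or more and an absolute log2 fold change under 0.5 in LPS over solvent, which does not show that LPS left a gene untouched. They made up 2.25% of the tested genes, 110 rising (0.648%) and 272 falling (1.6%). Just inside the limit lay Kif1b, Brpf3 and Slc39a10, with absolute LPS changes of 0.497 to 0.498, and just outside it Ndrg1, Copg2 and Zyx, with 0.502 to 0.504. The number was 234 without LPS replicate 1, 225 without LPS replicate 3, 275 without LPS + melatonin replicate 3 (202 of them shared with the 382) and 74 in the fit of the compared libraries only. It was higher, 393, without LPS + melatonin replicate 2, and 497 with DESeq2 in place of edgeR.

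Among these 382 were 14 of the 292 tested stress genes, 12 that fell and 2 that rose. Of all tested genes 2.25% met the definition. Stress genes were more abundant than most, with a median of 50.5 CPM beside 11.3 CPM. The share among genes of like abundance is not given here, so the 14 are no sign of an excess. The 14 genes came from 8 lists, with at most 3 from any of them. Without single libraries of either group between 8 and 14 stress genes met the definition. It was 9 without LPS replicate 1 or 2, 8 without LPS replicate 3 or LPS + melatonin replicate 1, and 9 without LPS + melatonin replicate 3, which shared 6 with the 14. In the fit of the compared libraries only, 1 did. Per gene length, on the deposited FPKM scale, their levels in LPS cells ran from 302 FPKM for P4hb to 7.87 FPKM for Mitf.

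**Figure D2:**
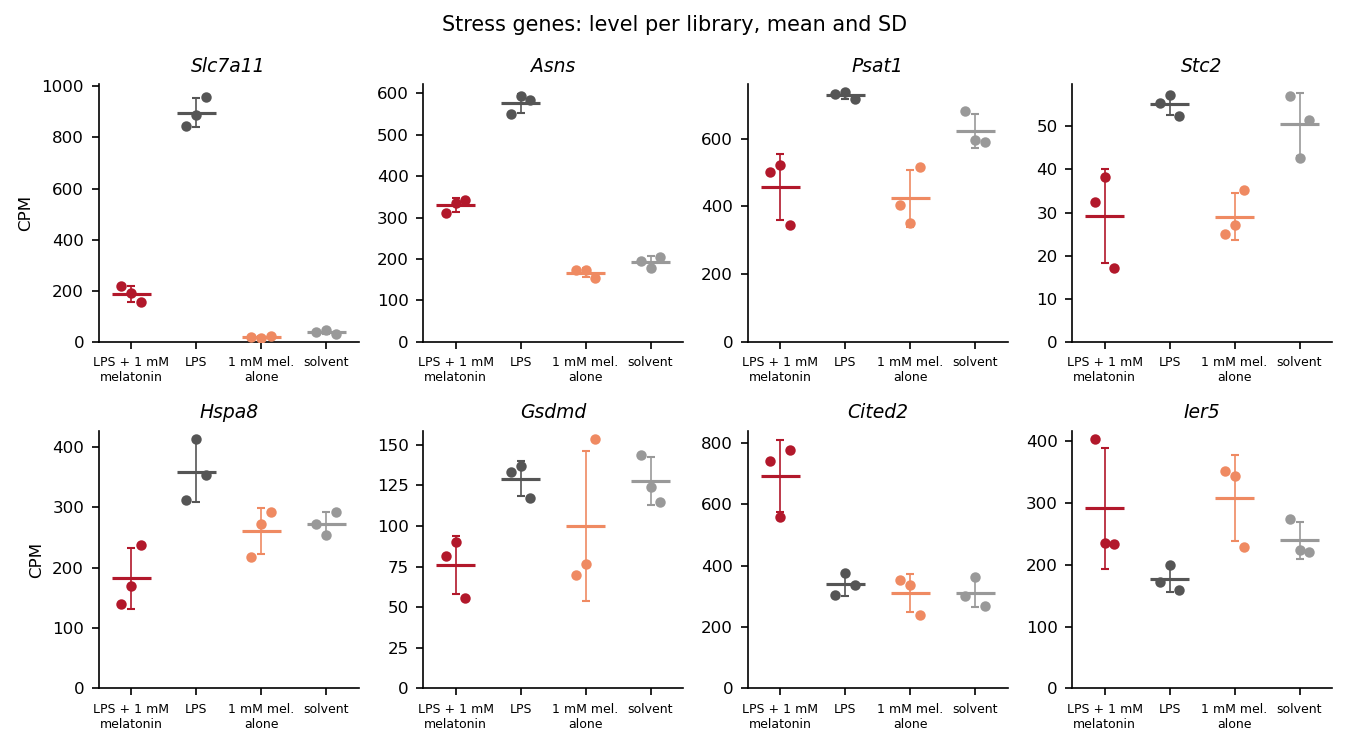
Level in CPM (linear axis) of 8 stress genes in LPS + 1 mM melatonin, LPS, melatonin alone and solvent libraries, with points for libraries and bars for mean and SD. LPS had raised Slc7a11 and Asns and had not moved the others. Cited2 is at 557 to 777 CPM in LPS + melatonin and 303 to 377 CPM in LPS libraries.

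Serine and glycine synthesis was represented by Psat1 and Shmt2, targets of ATF4. Psat1, a serine-synthesis aminotransferase (chromosome 19, 15904678 to 15947337, mm10), had 503, 523 and 346 CPM in LPS + melatonin libraries and 732, 739 and 717 CPM in LPS libraries (-0.67 ± 0.15, adjusted p = 0.00146). Shmt2, the mitochondrial enzyme that turns serine into glycine, had 414, 335 and 257 CPM in LPS + melatonin libraries and 464, 490 and 536 CPM in LPS libraries (-0.57 ± 0.17, adjusted p = 0.0290). Both were lower in every LPS + melatonin library, and lowest in replicate 3. Stc2, a secreted glycoprotein gene induced by unfolded proteins, had 32.5, 38.3 and 17.2 CPM in LPS + melatonin libraries and 55.5, 57.3 and 52.4 CPM in LPS libraries (-0.90 ± 0.24, adjusted p = 0.0119). The Shmt2 call was lost without LPS replicate 2 or 3, LPS + melatonin replicate 2 or 3 or all other groups (adjusted p 0.0594 to 0.191), and that of Stc2 without LPS + melatonin replicate 3 or all other groups (0.113 to 0.142). Psat1 lost its call only in the fit of the compared libraries (adjusted p = 0.0720). LPS over solvent was 0.23 ± 0.14, 0.14 ± 0.17 and 0.13 ± 0.24 for these 3 genes.

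The endoplasmic reticulum was represented by P4hb and Sec61b, with small fold changes. P4hb, a protein disulfide isomerase, had 727, 679 and 635 CPM in LPS + melatonin libraries and 909, 915 and 844 CPM in LPS libraries (-0.39 ± 0.11, adjusted p = 0.0260). Sec61b, a subunit of the translocon, had 223, 206 and 129 CPM in LPS + melatonin libraries and 252, 241 and 296 CPM in LPS libraries (-0.50 ± 0.15, adjusted p = 0.0296). Neither pair of groups overlapped. P4hb lost its call without LPS replicate 1 or 2, without LPS + melatonin replicate 2 or 3, with no filter on low counts and in the fit of the compared libraries only (adjusted p 0.0671 to 0.233). Sec61b lost it without LPS replicate 1 or 3, without LPS + melatonin replicate 3 and in the same 2 fits (0.0550 to 0.267). In the whole list of the unfolded protein response 5 of 29 tested genes fell and 0 rose (3 fell without LPS replicate 1 or 2 or LPS + melatonin replicate 3). The master chaperone Hspa5 fell by 0.36 ± 0.10 on the log2 scale (3144 ± 158 CPM in LPS + melatonin cells and 4045 ± 48.8 CPM in LPS cells), the oxidase gene Ero1l by 1.02 ± 0.16 and the calnexin gene Canx by 0.49 ± 0.11. The Hspa5 call was lost without LPS replicate 2 and in the fit of the compared libraries only (adjusted p 0.0509 to 0.199). Canx lost its call only in the fit of the compared libraries (adjusted p = 0.122).

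The heat shock list divided. Hspa8, the constitutive cytosolic HSP70 (chromosome 9, 40800984 to 40810087, mm10), had 139, 170 and 237 CPM in LPS + melatonin libraries and 312, 413 and 354 CPM in LPS libraries (-0.98 ± 0.15, adjusted p = 5.08e-06). Hspe1, the mitochondrial co-chaperonin, had 21.3, 20.4 and 34.3 CPM in LPS + melatonin libraries and 36.1, 54.6 and 49.8 CPM in LPS libraries (-0.89 ± 0.26, adjusted p = 0.0241). Hsph1, an HSP110 chaperone that LPS had raised, rose further, with 297, 299 and 324 CPM in LPS + melatonin libraries and 226, 172 and 203 CPM in LPS libraries (0.61 ± 0.18, adjusted p = 0.0284). The 3 genes thus differed in direction with no overlap of libraries. Of the 22 tested members 4 fell, the others being Hspd1 and Hsp90aa1, and 1 rose. Only 2 fell without LPS replicate 2 or LPS + melatonin replicate 1, and 1 without LPS replicate 3. Hspa8 was close to the limit of the definition, with LPS over solvent at 0.40 ± 0.14 and an adjusted p of 0.0507. Except for Hspa8, these calls were all lost in the fit of the compared libraries, and those of Hspe1, Hspd1 and Hsp90aa1 also with no filter on low counts. Hspe1 further lost its call without LPS replicate 2 or 3 or LPS + melatonin replicate 1 or 2 (adjusted p 0.0759 to 0.138 over all these fits), and Hsph1 without LPS replicate 2 or 3 or LPS + melatonin replicate 2 or 3 (0.0503 to 0.162). Hsp90aa1 lost it without LPS replicate 3 or LPS + melatonin replicate 1 (0.0899 to 0.301), and Hspd1 without any LPS replicate and without LPS + melatonin replicate 1 or 2 (0.0797 to 0.288). Both Hspa8 and Hspe1 have processed pseudogenes, and the start of Hspe1 overlaps that of Hspd1 on the other strand, so their counts are uncertain.

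Hspe1 was the only one of the 12 unmoved stress genes with a promoter entry that held a heat shock element, searched as GAANNTTC (the same letters on both strands), which 9.04% of all genes hold. None of the 12 held TGATGNAA. The Hspe1 promoter, chr1:55087898-55088197 on the plus strand, is shown for this element, which begins at -84 from the start and is in capitals.
Hspe1: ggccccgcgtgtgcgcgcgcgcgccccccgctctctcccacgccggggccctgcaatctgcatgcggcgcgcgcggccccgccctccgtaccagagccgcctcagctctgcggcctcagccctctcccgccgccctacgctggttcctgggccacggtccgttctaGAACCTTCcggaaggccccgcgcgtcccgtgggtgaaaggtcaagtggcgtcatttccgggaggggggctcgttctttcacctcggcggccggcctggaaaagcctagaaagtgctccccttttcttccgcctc
The motif is also in the promoter of 1 fallen gene of the amino acid branch, Asns.

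Mitf and Gpnmb, a lysosome-linked pair, fell as well. Mitf, a transcription factor of the TFEB family, had 19.0, 12.8 and 33.5 CPM in LPS + melatonin libraries and 42.2, 53.6 and 54.7 CPM in LPS libraries (-1.21 ± 0.35, adjusted p = 0.0213). Gpnmb, a glycoprotein of stressed lysosomes and a known target of MITF, had 318, 367 and 307 CPM in LPS + melatonin libraries and 479, 493 and 449 CPM in LPS libraries (-0.52 ± 0.17, adjusted p = 0.0447). They were the only called genes of the 22 tested on the autophagy list. Both lost their calls in the fit of the compared libraries only. Mitf also lost it without LPS replicate 2 or 3 or LPS + melatonin replicate 1 or 2 (adjusted p 0.0578 to 0.153 over these fits). Gpnmb also lost it without any of the LPS replicates and without LPS + melatonin replicate 1 or 3 (0.0710 to 0.128).

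Of the cell death list 7 of 28 tested genes fell and 2 rose. Mcl1, an anti-apoptotic BCL2 relative, had 818, 679 and 602 CPM in LPS + melatonin libraries and 976, 1084 and 948 CPM in LPS libraries (-0.52 ± 0.10, adjusted p = 6.51e-04). Gsdmd, the pore-forming executor of pyroptosis, had 81.7, 90.1 and 55.9 CPM in LPS + melatonin libraries and 133, 137 and 117 CPM in LPS libraries (-0.76 ± 0.20, adjusted p = 0.0119). LPS over solvent was 0.22 ± 0.10 and 0.02 ± 0.20 for them, and the LPS + melatonin and LPS libraries did not overlap. The Gsdmd call was lost without LPS + melatonin replicate 3 (adjusted p 0.0787 to 0.103 in that fit and the fit of the compared libraries). Mcl1 lost its call only in the fit of the compared libraries (adjusted p = 0.131). Zbp1, a sensor that can start necroptosis, and the BCL2 relatives Bcl2a1a, Bcl2a1b and Bcl2a1d fell by 3.30, 2.97, 2.10 and 2.14 on the log2 scale after LPS had raised them. The 3 Bcl2a1 copies are nearly identical, so their separate levels are uncertain.

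Slc39a10, a zinc importer, had 76.0, 63.6 and 63.5 CPM in LPS + melatonin libraries and 96.2, 145 and 127 CPM in LPS libraries (-0.86 ± 0.19, adjusted p = 0.00218). It was the only called gene of 8 on the metal list, and the metallothionein gene Mt1 stood at 142 ± 28.4 CPM in LPS + melatonin cells and 115 ± 9.05 CPM in LPS cells (0.29 ± 0.20, adjusted p = 0.446). Its change with LPS, -0.50 ± 0.19 with an adjusted p of 0.0652, put it at the edge of the definition.

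The unmoved stress genes that rose were Cited2 and Ier5. Cited2, a co-regulator that restrains hypoxia-inducible transcription and is a FOXO target (chromosome 10, 17723218 to 17725674, mm10), had 741, 557 and 777 CPM in LPS + melatonin libraries and 303, 377 and 337 CPM in LPS libraries (1.03 ± 0.15, adjusted p = 3.89e-06). Ier5, an immediate early gene, had 405, 236 and 234 CPM in LPS + melatonin libraries and 172, 200 and 159 CPM in LPS libraries (0.72 ± 0.17, adjusted p = 0.00279). Both were higher in all LPS + melatonin libraries, Ier5 mostly in replicate 1, without which its call was lost (adjusted p 0.107 to 0.123 in that fit and the fit of the compared libraries). LPS over solvent was 0.13 ± 0.15 for Cited2 and -0.44 ± 0.16 for Ier5 (adjusted p = 0.0611). Psat1, Hspa8, Slc39a10, Cited2 and Mcl1 were the genes of the 14 whose melatonin change still passed without each library of either group in turn.

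The list of FOXO, fasting and PPAR targets was the stress list with the largest share of risers, 5 of 18 against 1 that fell (3 rose without LPS replicate 1). Cpt1a, which carries fatty acids into mitochondria, rose by 1.73 ± 0.36 (29.9 ± 5.19 CPM in LPS + melatonin cells and 8.99 ± 3.38 CPM in LPS cells), and Acadm, an enzyme of fatty acid oxidation, by 1.16 ± 0.26. Arrdc3, an arrestin-like adaptor, rose by 2.74 ± 0.69, a call lost without LPS replicate 1 (adjusted p = 0.0589). LPS had lowered Cpt1a and Acadm, to levels below the 38.1 ± 11.4 and 39.5 ± 7.67 CPM of solvent cells.

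NRF2 targets and antioxidant enzymes fell in 10 of 32 cases and rose in 1. The lowest change on this list, -2.26, was that of Slc7a11, which is also on the integrated stress response list. Sod2, the mitochondrial superoxide dismutase, had 161, 138 and 190 CPM in LPS + melatonin libraries and 604, 774 and 654 CPM in LPS libraries (-2.06 ± 0.15, adjusted p = 8.92e-14). Hmox1, haem oxygenase, had 30.2, 35.2 and 49.3 CPM in LPS + melatonin libraries and 129, 158 and 146 CPM in LPS libraries (-1.92 ± 0.26, adjusted p = 6.05e-07). Txnrd1, thioredoxin reductase, had 590, 594 and 369 CPM in LPS + melatonin libraries and 1133, 986 and 1111 CPM in LPS libraries (-1.06 ± 0.13, adjusted p = 6.49e-08). The groups were apart for all 3, and LPS had raised each. Nfe2l2, the gene of NRF2 itself, did not pass (0.40 ± 0.17, adjusted p = 0.170), nor did Gclm, a subunit of the glutathione-synthesis enzyme (-0.06 ± 0.19). Txnip, which inhibits thioredoxin, was at 74.3 ± 30.7 CPM in LPS + melatonin cells and 72.0 ± 15.2 CPM in LPS cells. None of the 32 met the definition of genes unmoved by LPS.

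The p53 list had 4 members that fell and 3 that rose of 27. Mdm2, which marks p53 for degradation, fell by 1.08 ± 0.16 on the log2 scale, Plk2, a kinase, by 1.08 ± 0.19, and Cdkn1a, the cell-cycle inhibitor p21, by 0.75 ± 0.12. Ccng1, also a p53 target, rose, with 54.4, 53.1 and 65.3 CPM in LPS + melatonin libraries and 19.9, 14.3 and 21.3 CPM in LPS libraries (1.64 ± 0.25, adjusted p = 8.10e-06). Known targets of the same factor thus lay on both sides. LPS had raised Mdm2, Plk2 and Cdkn1a (1.18 ± 0.16, 2.84 ± 0.21 and 0.45 ± 0.12 over solvent) and had lowered Ccng1 (-0.96 ± 0.25). Of immediate early genes 3 of 26 rose and 2 fell (1 rose without LPS + melatonin replicate 1). Fos rose to 93.2 ± 7.03 CPM in LPS + melatonin cells, against 46.9 ± 5.89 CPM in LPS cells (0.99 ± 0.23, adjusted p = 0.00269), and solvent cells averaged 486 ± 11.9 CPM. Egr2, a zinc-finger factor, was lower still with melatonin than with LPS only: it had 3.52, 1.87 and 0.798 CPM in LPS + melatonin libraries, 14.9, 10.2 and 15.4 CPM in LPS libraries and 79.5 ± 5.24 CPM in solvent cells (-2.65 ± 0.39 for melatonin with LPS, adjusted p = 3.98e-06).

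Of the hypoxia list 3 of 18 fell, among them the glucose carrier Slc2a1 (-0.87 ± 0.17) and the lactate carrier Slc16a3 (-0.75 ± 0.14). The Slc16a3 call was lost in the fit of the compared libraries (adjusted p = 0.0684). On the iron list Acsl4, a lipid enzyme that favours ferroptosis, fell by 0.99 ± 0.14 on the log2 scale. No gene of the glucocorticoid-type list (8 tested) or among aryl hydrocarbon receptor targets (3 tested) passed. At these depths small changes of genes with few counts were not detectable.

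Outside the stress lists the set unmoved by LPS held genes of the mature macrophage. Lyz2, which encodes lysozyme (chromosome 10, 117277331 to 117282321, mm10), had 1470, 1329 and 1366 CPM in LPS + melatonin libraries and 8157, 8434 and 8160 CPM in LPS libraries (-2.57 ± 0.32, adjusted p = 1.84e-07). Itgam, the integrin chain CD11b, had 56.9, 62.9 and 47.3 CPM in LPS + melatonin libraries and 189, 229 and 257 CPM in LPS libraries (-2.01 ± 0.31, adjusted p = 8.67e-06). Lcp1, the leukocyte actin bundler L-plastin, had 974, 901 and 632 CPM in LPS + melatonin libraries and 2996, 2751 and 2791 CPM in LPS libraries (-1.77 ± 0.16, adjusted p = 1.15e-10). All 3 were lower in every LPS + melatonin library, and no call was lost in any alternative fit. The Fc receptor gene Fcgr1 fell by 1.54 ± 0.25 on the log2 scale, the lectin receptor gene Clec12a by 1.72 ± 0.29 and the receptor of bacterial RNA Tlr13 by 1.71 ± 0.26.

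On the whole macrophage identity list 11 of 23 tested genes fell and 2 rose. The summed level of the list was 3977 to 4851 CPM in LPS + melatonin libraries and 13420.4 to 13699 CPM in LPS libraries, most of which was Lyz2 in LPS libraries. Without Lyz2 the sums were 2611 to 3382 CPM in LPS + melatonin libraries and 5264 to 5354 CPM in LPS libraries. The macrophage markers Cd68, Spi1 and Csf1r did not pass (0.07 ± 0.15, 0.20 ± 0.16 and -0.34 ± 0.21), whereas the markers Lyz2, Itgam and Fcgr1 fell. In bulk RNA fewer cells of a kind and less RNA per cell cannot be told apart. How far this list moved with the stress genes was not tested.

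**Figure D3:**
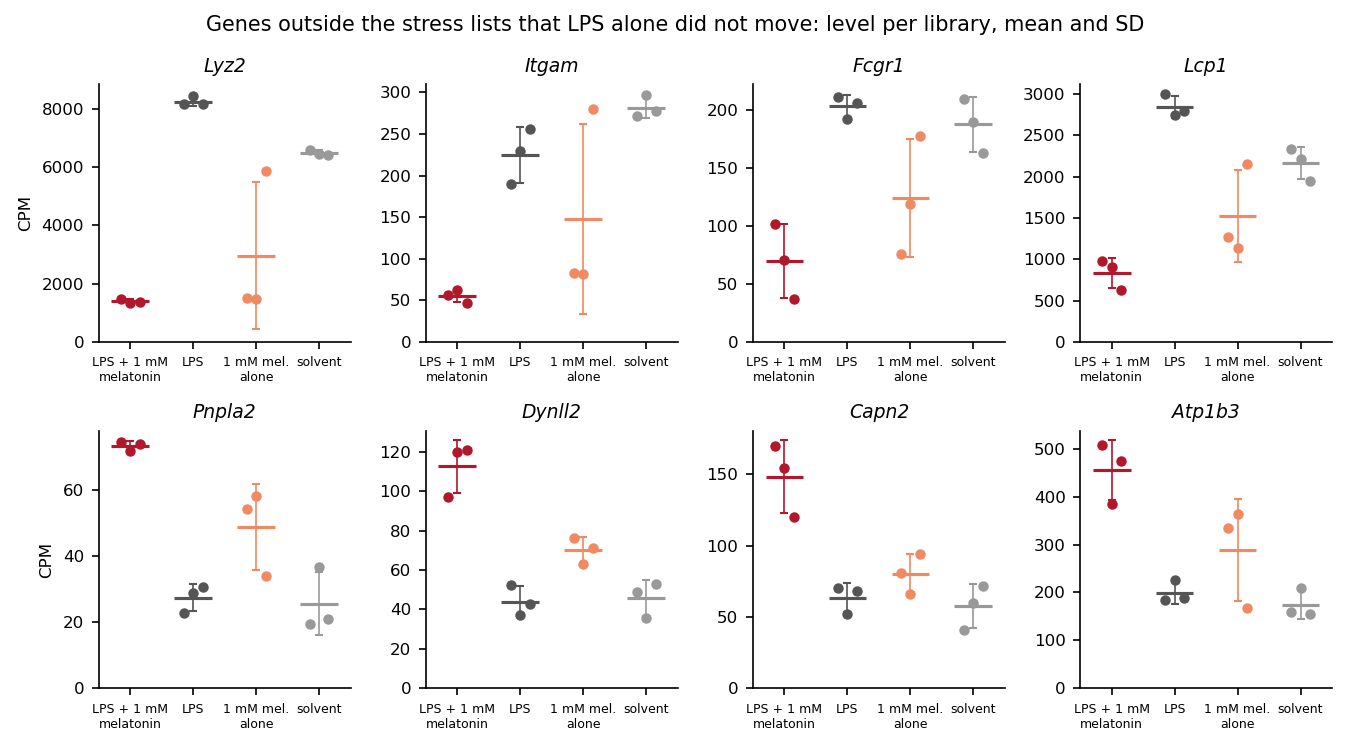
Level in CPM (linear axis) of 8 genes outside the stress lists that LPS alone did not move, in LPS + 1 mM melatonin, LPS, melatonin alone and solvent libraries, with points for libraries and bars for mean and SD. The upper genes are lower in LPS + melatonin than in LPS, the lower genes higher, and melatonin alone replicate 3 lies near solvent for Lyz2 (5872 CPM) and Itgam.

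Risers of the unmoved set were led by Hyal2, a hyaluronidase, with 12.1, 8.63 and 17.4 CPM in LPS + melatonin libraries and 1.97, 0.437 and 3.86 CPM in LPS libraries (2.60 ± 0.80, adjusted p = 0.0351). That call was lost without LPS replicate 1 or 2, without LPS + melatonin replicate 1 or 3 and in the fit of the compared libraries only (adjusted p 0.0618 to 0.184). Pnpla2, the triglyceride lipase ATGL, had 74.8, 71.9 and 74.0 CPM in LPS + melatonin libraries and 22.9, 28.8 and 30.8 CPM in LPS libraries (1.42 ± 0.27, adjusted p = 2.93e-04). Dynll2, a dynein light chain, had 97.0, 120 and 121 CPM in LPS + melatonin libraries and 52.2, 37.1 and 42.7 CPM in LPS libraries (1.35 ± 0.20, adjusted p = 5.71e-06). These groups stood clear of each other. Atp1b3, a subunit of the sodium pump, rose by 1.19 ± 0.19, and Capn2, a calcium-dependent protease, by 1.22 ± 0.19. The lysosomal genes Smpd1 and Hgsnat and the proton-pump subunit gene Atp6v0e2 rose by 1.43 ± 0.39, 1.52 ± 0.43 and 1.60 ± 0.41, whereas on the lysosome list as a whole 6 of 26 genes fell and 2 rose. Without LPS replicate 1, 3 of that list fell, and without LPS replicate 2 or 3, 0 rose. Smpd1 lost its call without any LPS replicate and without LPS + melatonin replicate 1 (adjusted p 0.0539 to 0.0715), Hgsnat without LPS replicate 1 or 3 or LPS + melatonin replicate 1 (0.0534 to 0.123), and Atp6v0e2 without LPS replicate 3 (0.0551).

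Melatonin alone against solvent shares no library with the main comparison, and 71 genes (0.418%) passed there. The number was 347 when melatonin alone replicate 3 was left out, 20 when replicate 1 was and 10 when replicate 2 was. Leaving out any solvent library gave 24 to 41. Of the 272 unmoved genes that fell with LPS + melatonin, 246 (90.4%) were also below solvent with melatonin alone, and of the 110 that rose 94 (85.5%) were above it. Among all tested genes 57.3% of those lower and 56% of those higher with LPS + melatonin lay on the same side. For called genes, moved by LPS or not, it was 78% of the 800 that fell and 65.4% of the 482 that rose. Over the 382 genes the changes had a Pearson r of 0.65, given as a description across genes of shared libraries. The solvent libraries also entered the definition of the set through LPS over solvent, so this is no independent support. The changes were smaller without LPS, with a median of -0.21 beside -0.72 for the fallers and 0.28 beside 0.87 for the risers. Of all 56 stress genes that fell, 43 (76.8%) were below solvent with melatonin alone, near the 78% over all genes that fell. All 17 fallen genes of the integrated stress response were below solvent with melatonin alone, and 16 were without melatonin alone replicate 3 and a further library that stood apart. Melatonin alone replicate 3 had a macrophage identity sum of 13102 CPM, beside 6224 and 6094 CPM in replicates 1 and 2, against 13938 to 14596 CPM in solvent libraries. Without Lyz2 the sums were 7230.5 CPM in replicate 3, 4710.3 and 4622 CPM in replicates 1 and 2, and 7527 to 7999.9 CPM in solvent libraries. Replicate 3 was thus near solvent on both sums, and its part was not tested beyond leaving it out.

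**Figure D4:**
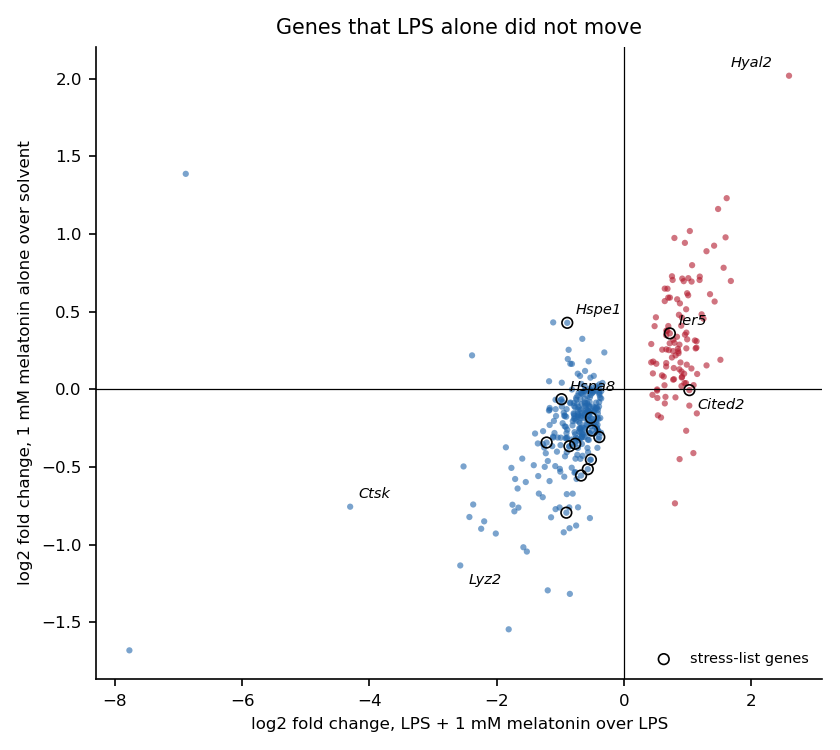
Log2 fold change of LPS + 1 mM melatonin over LPS (horizontal) and of melatonin alone over solvent (vertical) for the 382 genes that LPS alone did not move, with risers in red, fallers in blue and the 14 stress genes ringed. Most points lie in the lower left and upper right, 246 of 272 fallers and 94 of 110 risers. Hspe1, Hspa8 and Cited2 lie near or across the zero line of the vertical axis.

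For some stress genes the change differed with and without LPS. The difference between the melatonin change with and without LPS passed for 287 genes (1.69%), among them Hspa8 (-0.92 ± 0.20, adjusted p = 0.00808), Hspe1 (-1.32 ± 0.36, adjusted p = 0.0480) and Cited2 (1.03 ± 0.21, adjusted p = 0.00346). Melatonin alone averaged 261 ± 38.6 CPM of Hspa8 and solvent 273 ± 19.4 CPM. For Cited2 melatonin alone averaged 310 ± 62.2 CPM and solvent 311 ± 47.2 CPM. Hspe1 averaged 45.9 ± 4.25 CPM with melatonin alone and 34.1 ± 6.32 CPM with solvent. The Hspe1 difference passed without LPS replicate 1 and without LPS + melatonin replicate 3, but not without any other single library of the 4 groups (adjusted p up to 0.158). The other 11 of the 14 did not pass this test, among them Psat1 (-0.12 ± 0.20), which averaged 424 ± 84.9 CPM with melatonin alone and 623 ± 50.03 CPM with solvent. All 14 were chosen by their change with LPS, which is a part of the difference, so a pass here is no independent support.

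**Figure D5:**
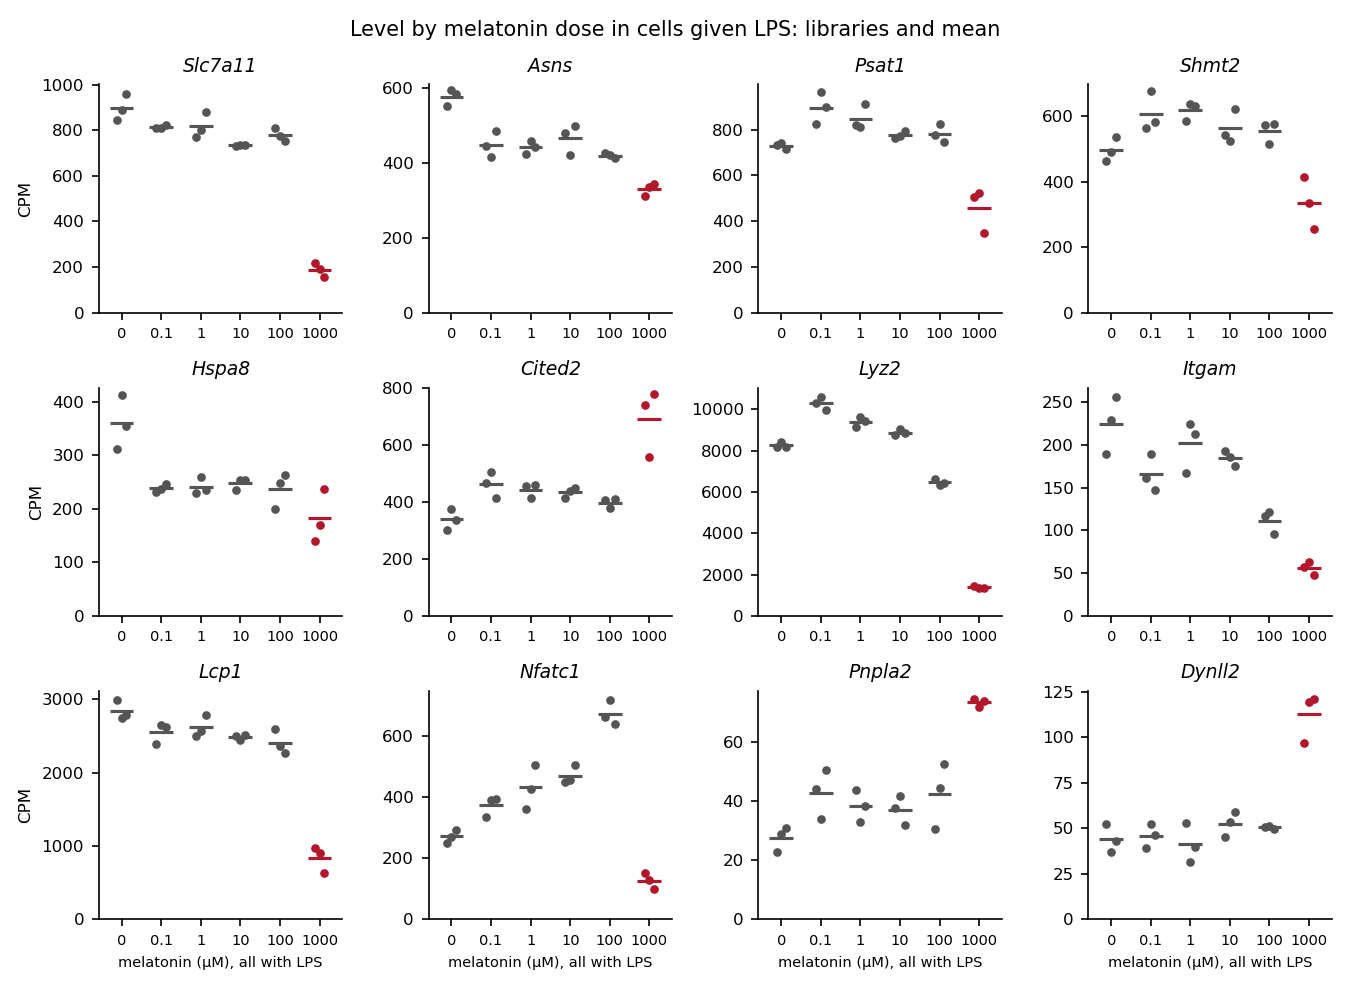
Level in CPM (linear axis) of 12 genes in cells given LPS with 0 (LPS only), 0.1, 1, 10, 100 and 1000 µM melatonin, with points for libraries and bars for means, and 1000 µM (1 mM) in red. Slc7a11 and Lcp1 lie far above their 1000 µM values at every other dose, and Nfatc1 is highest at 100 µM and lowest at 1000 µM.

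The levels at lower melatonin doses with LPS differed in shape between genes and are given without a test. Slc7a11 was at 846 to 960 CPM with LPS only, between 731 and 881 CPM at 0.1 to 100 µM, and at 155 to 218 CPM at 1000 µM. Cited2 was at 303 to 377 CPM with LPS only, between 378 and 506 CPM at 0.1 to 100 µM, and at 557 to 777 CPM at 1000 µM. For these the library values at 1000 µM lay outside all others. Hspa8, by contrast, was at 312 to 413 CPM with LPS only and already between 201 and 264 CPM at 0.1 to 100 µM, a range that LPS + melatonin replicate 3, at 237 CPM, shared. Psat1 lay between 745 and 966 CPM at 0.1 to 100 µM, above the 717 to 739 CPM with LPS only, and at 346 to 523 CPM at 1000 µM. Lyz2 stood at 8157 to 8434 CPM with LPS only, 9980 to 10581 CPM at 0.1 µM, 6312 to 6640 CPM at 100 µM and 1329 to 1470 CPM at 1000 µM.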

How the data were processed

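RNA was sequenced from 36 libraries of 12 groups of 3, and groups were taken from the treatment label of each library. Total RNA was isolated with Trizol and sequenced as Illumina libraries, per the labels' protocols. The submitters' processing notes name cutadapt, featureCounts and the mm10 genome. The aligner, the versions, the annotation and the strand setting are not given in the sources used here. The deposited table holds raw whole-number counts, 1 column per library. The authors also deposited FPKM values with symbols and biotypes, of which the symbols, biotypes and a few levels were used and none were tested. Positions came from GENCODE M21 on mm10 (99.6% of identifiers matched) and promoters from RefSeq on GRCm38.p6.

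Genes passing filterByExpr were tested with edgeR 4.0.16 (R 4.3.3, limma 3.58.1) by quasi-likelihood, with TMM scaling and 1 mean per group over all 36 libraries (common dispersion 0.266), two-sided, with Benjamini-Hochberg adjustment per contrast at 0.05. The procedure was tested on simulated data. The contrasts were LPS + melatonin over LPS, LPS over solvent, melatonin alone over solvent and the difference of melatonin's effect with and without LPS. Where a group had 0 counts the fold is a bound from 3 counts over its libraries, and where it had 1 to 3 counts it is a ratio with an exact 95% interval. Bounds and intervals cover counting error only. The lists, comparisons and members were chosen with earlier results of these data known.

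Named genes are the 12 highest and 12 lowest called fold changes and the 15 highest and 15 lowest of genes unmoved by LPS (5 CPM or more in the higher group's mean, libraries not overlapping, named protein-coding or lncRNA genes), up to 4 called members of each list by lowest p, all unmoved stress genes, and 12 set genes. Of these, the genes the text needs are printed. Alternatives were RLE scaling, no filter or 1 CPM in 3 libraries, DESeq2 1.42.0, only the compared libraries, protein-coding genes only, a replicate block, leaving out each library, and leaving out 2 libraries of melatonin alone (1 mM replicate 3 and 1 µM replicate 1).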

Additional observations from a re-analysis of the deposited data

Results flagged for a closer look

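The change with 1 mM melatonin was compared with and without LPS for 44 genes unmoved by LPS, by the interaction term of the edgeR fit. They were the stress genes of that set and its named highest and lowest fold changes, not all of which are printed. Of the 44, 4 passed at an adjusted p under 0.05. Hspa8, a cytosolic chaperone gene, had an interaction of -0.92 ± 0.20 (adjusted p = 0.00808), from changes of -0.98 with LPS and -0.06 without it. Hspe1, the mitochondrial co-chaperonin gene, had -1.32 ± 0.36 (adjusted p = 0.0480), from -0.89 with LPS and 0.43 without. Cited2, the transcriptional co-regulator, had 1.03 ± 0.21 (adjusted p = 0.00346), from 1.03 with LPS and -0.01 without. Lcp1, the actin bundler, had -1.26 ± 0.23 (adjusted p = 6.21e-04), from -1.77 with LPS and -0.51 without. Over all tested genes 1.69% passed the same test. The 44 were chosen by their change with LPS, which is a part of the interaction. Their share is therefore not comparable with that of all tested genes. Lcp1 passed in all 20 alternatives, and Hspa8 and Cited2 in all but the fit of the compared libraries only (adjusted p 0.178 and 0.0778). Hspe1 failed in 15 of them, 10 of which each left out 1 library (adjusted p 0.0504 to 0.158).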

How the results depend on the processing

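Genes changed by LPS with 1 mM melatonin against LPS numbered 1282 and from 918 to 1608 under the other settings, apart from 558 with only the compared libraries. Genes changed by LPS with 1 mM melatonin against LPS that LPS does not move numbered 382, 74 with only the compared libraries, and 225 to 393 without single libraries. They numbered 497 with DESeq2 and 452 without 1 mM replicate 3 and 1 µM replicate 1 of melatonin alone. Genes where the 1 mM melatonin change differs with and without LPS numbered 287, 454 with DESeq2 and 102 with only the compared libraries. Genes changed by 1 mM melatonin alone against solvent numbered 71. There were 151 with no filter, 157 with DESeq2, 485 without the pair of libraries of melatonin alone that stood apart, 0 by edgeR with only the compared libraries (1169 at an unadjusted p under 0.05) and 10 to 347 without single libraries. The fit of the compared libraries estimates the spread from fewer libraries. For LPS + melatonin over LPS it also tested fewer genes, 13063 against 16988. The cause of these shifts was not tested. Of 159 tested named genes 91 had the same direction and call in all 14 alternatives and 68 changed call or direction in at least 1. Txnip, never called (0.04), ran from -0.32 to 0.28 without single libraries, below 0 without LPS replicate 1 (-0.12) and LPS + melatonin replicate 3 (-0.32). With a replicate block 1241 genes passed. Same-numbered libraries did not deviate together (r of 0.01, -0.03 and -0.03). With 3 libraries per group this cannot exclude a pairing by number. Depth limits genes with few counts, most in LPS + melatonin replicate 3.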

Other observations

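Some genes of DNA replication and histones rose. Of 25 tested replication genes 6 rose and 0 fell with LPS + melatonin over LPS (3 rose without LPS replicate 1). Of 13 histone genes 4 rose and 0 fell, but 1 rose without LPS replicate 3, and 2 without LPS + melatonin replicate 2 or 3. Mcm6, a subunit of the replicative helicase, had 51.3, 53.8 and 88.0 CPM in LPS + melatonin libraries and 12.7, 28.2 and 26.8 CPM in LPS libraries (1.505 ± 0.24, adjusted p = 1.72e-05 by edgeR), and 164 ± 18.3 CPM in solvent cells. Prim1, a primase subunit, rose by 2.13 ± 0.43, to 12.8 ± 2.57 CPM in LPS + melatonin cells, against 2.90 ± 0.142 CPM in LPS cells. Every LPS + melatonin library lay above every LPS library for both genes.

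Osteoclast genes split. Nfatc1, the master factor of osteoclast formation, which RAW 264.7 cells can undergo, fell to 125 ± 25.9 CPM in LPS + melatonin cells, against 271 ± 21.0 CPM in LPS cells (-1.11 ± 0.18, adjusted p = 3.71e-05 by edgeR). With LPS and melatonin at 0.1, 1, 10 and 100 µM its libraries lay at 335 to 393, 363 to 507, 451 to 504 and 640 to 718 CPM, so its level at 1000 µM was below and at 100 µM above every other dose. These dose levels were singled out after they were seen and not tested. Ctsk, the collagen-degrading protease of osteoclasts, had 0.460, 0 and 0.200 CPM in LPS + melatonin libraries and 3.34, 5.24 and 5.40 CPM in LPS libraries (-4.30 ± 1.07, adjusted p = 0.00624). The Ctsk call was lost in the edgeR fit of the compared libraries (adjusted p = 0.0744). Ocstamp, a fusion gene, had 4.75, 3.45 and 4.19 CPM in LPS + melatonin libraries and 0 counts in all 3 LPS libraries, at least 27.5-fold higher (bound from 3 counts over the libraries).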
